A study of Homo sapiens with 8 samples.

Results

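This account follows 42 genes of the Hippo, YAP and TEAD pathway and of the SRF (serum response factor) programme in HCT116, a long-established cell line from a human colorectal carcinoma. They were taken as the rows of the gene table whose name is on a list. It holds Hippo kinases and scaffolds, other YAP or TEAD regulators, the coactivators with the TEAD factors, their target genes, and SRF with cytoskeletal targets. Of the 42 genes, 38 reached 1 FPKM in at least 2 libraries and were tested among 16239 genes, out of 58735 in the table. AMOT, ANKRD1, ACTA2 and CNN1 did not reach it. FPKM is a fragment count divided by exon length and by a size for each library, so levels can be set side by side between genes. The older names CYR61 and CTGF (now CCN1 and CCN2) are kept as in the table.

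The 8 libraries fall into 4 groups of 2. The first group carried shRNA 1 against MAPKAPK2 (a short hairpin RNA that lowers the mRNA of the stress kinase MK2) and was kept at 20 mM glucose. The second carried shRNA 2 against MAPKAPK2, also at 20 mM, and no label gives the time that either was kept in that medium. The third and the fourth carried a control shRNA and were kept for 24 h at 0 mM glucose or at 20 mM glucose. All cells therefore carried an shRNA. Whether the libraries of a group came from separate cultures is not stated, and their spread, against which every p-value is set, may be technical. The 20 mM control libraries serve every comparison except that of the 2 shRNAs, so results of the glucose comparison and of each shRNA are not independent of each other.

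In the Hippo pathway, the kinases MST1 and MST2 (genes STK4 and STK3) with the scaffold SAV1 activate LATS1 and LATS2, whose cofactors are MOB1A and MOB1B. LATS kinases phosphorylate YAP and its relative TAZ (gene WWTR1), which are then held in the cytoplasm or degraded. Unphosphorylated YAP and TAZ enter the nucleus and bind TEAD1 to TEAD4 at genes such as CYR61 and CTGF. SRF, with actin-regulated MRTF cofactors, drives genes of the actin cytoskeleton, and the 2 programmes share several targets. These libraries measure mRNA and not phosphorylation, protein or location.

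Reads in genes numbered 14252316 to 19975449 per library. MAPKAPK2 had 2.77 and 2.54 FPKM with shRNA 1 and 0.982 and 0.800 FPKM with shRNA 2, against 17.9 and 18.9 FPKM in the 0 mM controls and 16.4 and 16.2 FPKM in the 20 mM controls. The knockdown was deeper with shRNA 2 (log2 fold change of shRNA 2 against shRNA 1 -0.95 ± 0.09 SE, limma adjusted p = 0.00124). All 8 epithelial markers checked reached 1 FPKM in every group, whereas the summed FPKM of 3 endothelial markers and of 4 blood markers was at most 0.648 in any library. The 2 libraries of shRNA 2 differed most from each other, with a mean chi-square per gene of 31.2 against 6.22 to 12.1 in the other groups. In bulk RNA, fewer cells of a kind and less RNA per cell cannot be told apart.

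With MAPKAPK2 knocked down, 4 of the 9 tested YAP and TEAD target genes were lower for the mean of both shRNAs (CYR61, CTGF, NUAK2 and THBS1), 2 were higher (FJX1 and NT5E) and 3 did not pass (AXL, F3 and CRIM1). YAP1 mRNA was lower and WWTR1 mRNA was higher. Taking the mean of both shRNAs against the 20 mM controls, 19 of the 38 tested genes passed the test (limma on log2(FPKM + 1), Benjamini-Hochberg adjusted p under 0.05 over all 16239 genes, the same sign with both shRNAs). Among all tested genes 17.3% passed. Of the 38, 14 were lower (36.8%, where 7.77% of all genes were lower) and 5 were higher (13.2%, where 9.56% of all genes were higher). Taken singly, 18 of them were lower and 5 higher with shRNA 1 (19.8% of all genes passed, 10.5% lower and 9.35% higher), and 11 were lower and 7 higher with shRNA 2 (18.8% of all genes passed, 7.73% lower and 11.1% higher). With both shRNAs, 9 were lower (SAV1, MOB1A, AMOTL2, AJUBA, YAP1, CYR61, CTGF, NUAK2 and THBS1), 4 were higher with both (WWTR1, FJX1, NT5E and ZYX), and AXL and F3 passed in opposite directions. Among all tested genes 3.03% were lower with both, 4.05% were higher with both and 0.942% passed in opposite directions, in comparisons that share their controls. The 4 knockdown libraries lay entirely above all 4 control libraries for 7 of the 38 genes and entirely below them for 13, where 11.7% and 9.24% of all genes did so. The counts rest on few libraries. Without 1 of the 20 mM controls they were 10 or 11 in place of 19 for the mean of both shRNAs, 11 or 12 in place of 23 with shRNA 1 and 11 or 12 in place of 18 with shRNA 2, and without 1 of the shRNA 1 libraries the count with shRNA 1 was 11.

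**Figure D1:**
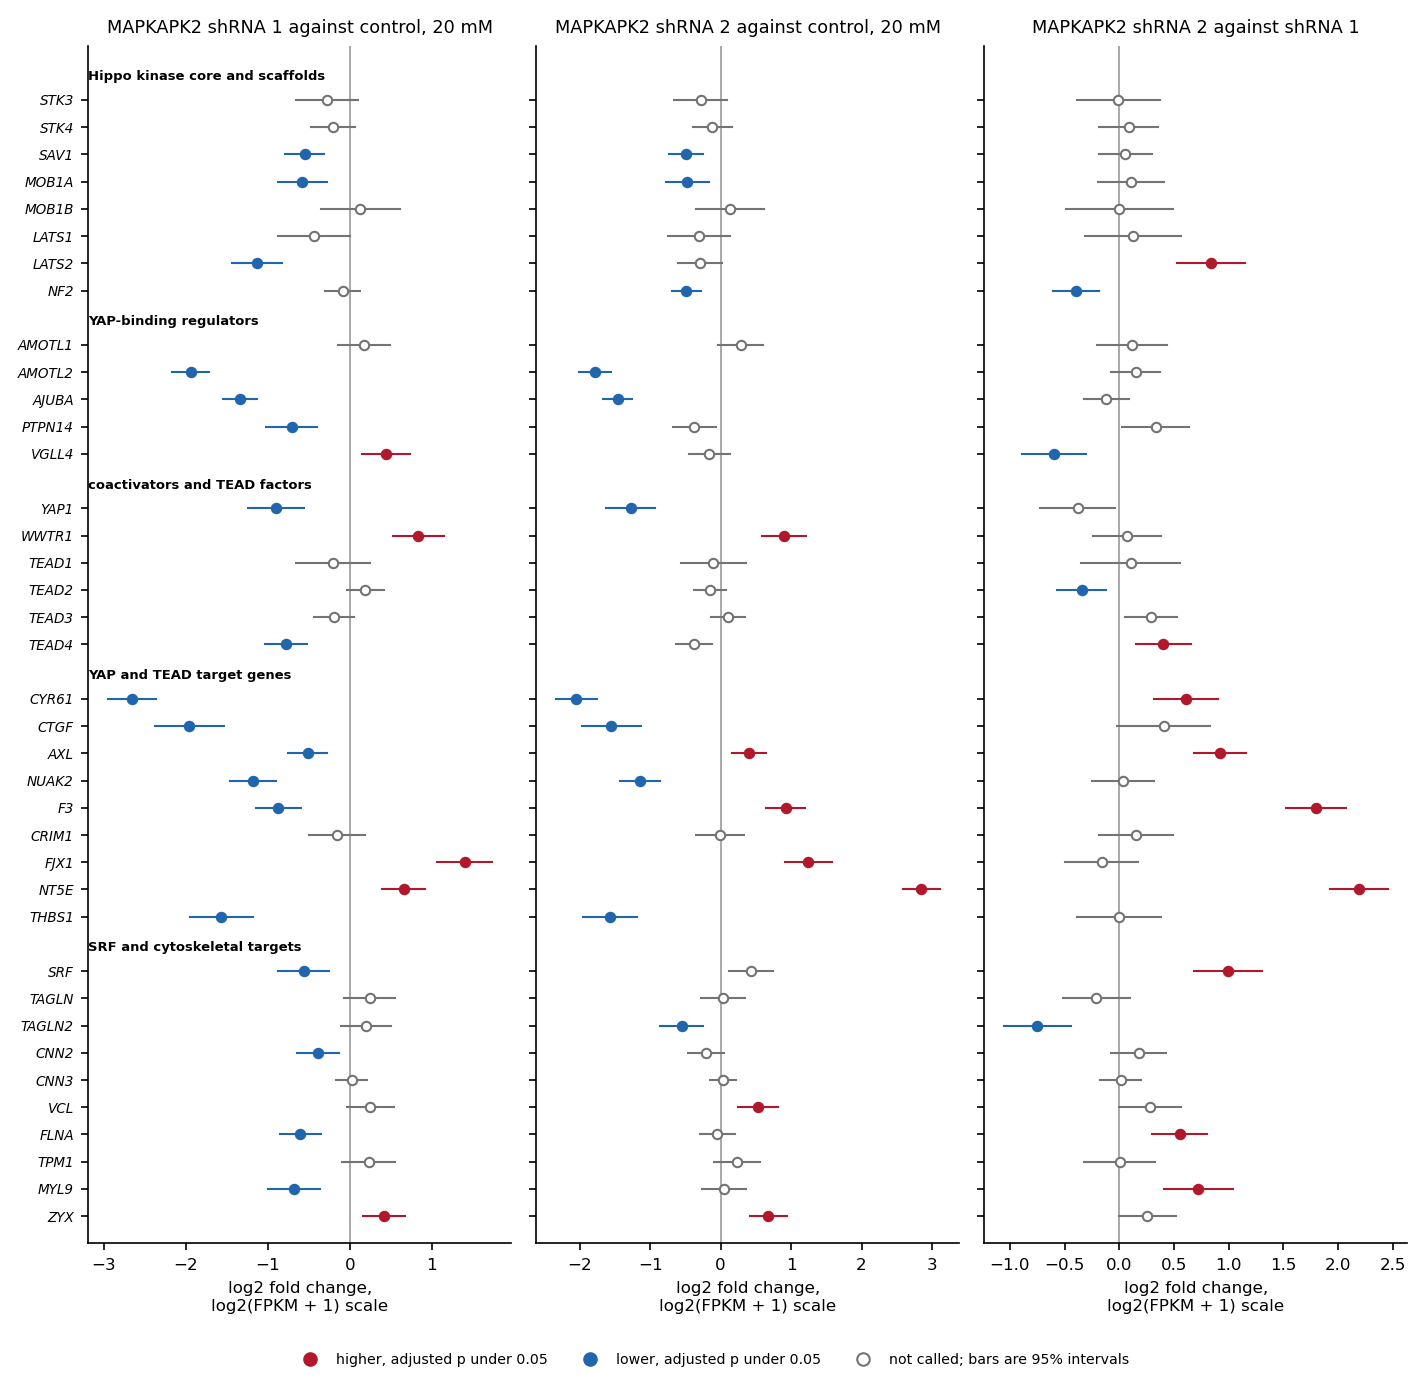
Log2 fold change on the log2(FPKM + 1) scale with 95% intervals for the 38 tested genes, grouped by role, with shRNA 1 against control (left), shRNA 2 against control (middle) and shRNA 2 against shRNA 1 (right); n = 2 libraries a group, the horizontal scale differs between panels. CYR61, CTGF, NUAK2, THBS1, AMOTL2 and AJUBA lie far below 0 with both shRNAs, and NT5E, F3, AXL and SRF differ most between them.

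Among target genes of YAP and TEAD, genes of secreted matricellular proteins fell. CYR61 (chr1:85580761-85583962, plus strand, GRCh38) had 5.21 and 6.79 FPKM with shRNA 1 and 10.04 and 9.21 FPKM with shRNA 2, against 54.5 and 52.2 FPKM in the 0 mM controls and 44.6 and 41.3 FPKM in the 20 mM controls. Relative to the control mean, always that of the 20 mM controls, it had 14.0% with shRNA 1 and 22.4% with shRNA 2. CTGF, the related gene that is often read as the standard YAP reporter (chr6:131948176-131951373, minus strand), had 0.477 and 0.531 FPKM with shRNA 1 and 0.745 and 1.27 FPKM with shRNA 2, against 5.60 and 6.07 FPKM in the 0 mM controls and 4.17 and 5.60 FPKM in the 20 mM controls. THBS1, which encodes the matrix protein thrombospondin 1, had 0.754 and 0.643 FPKM with shRNA 1 and 0.502 and 0.916 FPKM with shRNA 2, against 4.00 and 4.43 FPKM in the 0 mM controls and 4.34 and 3.72 FPKM in the 20 mM controls. All 4 knockdown libraries lay below all 4 control libraries for each of these genes.

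On the log2(FPKM + 1) scale the fold changes of CYR61 were -2.66 ± 0.12 (SE) with shRNA 1 and -2.05 ± 0.12 with shRNA 2 (limma adjusted p = 0.000259 and 0.000267). For CTGF they were -1.96 ± 0.18 and -1.55 ± 0.18 (limma adjusted p = 0.00151 and 0.00224), and for THBS1 -1.57 ± 0.16 with either shRNA (limma adjusted p = 0.00193 for shRNA 1 and 0.00148 for shRNA 2). The log2(FPKM + 1) scale understates changes of genes near 1 FPKM. Of its control mean CTGF had 10.3% with shRNA 1 and 20.7% with shRNA 2, and THBS1 17.3% and 17.6%. On reads recovered from the FPKM, limma voom gave CTGF -3.24 ± 0.43 and -2.33 ± 0.33, THBS1 -2.51 ± 0.24 and -2.59 ± 0.24, and CYR61 -2.86 and -2.15, so the order of these genes depends on the scale. NUAK2, a kinase of the AMPK family and a direct YAP target, had 1.64 and 1.35 FPKM with shRNA 1 and 1.69 and 1.43 FPKM with shRNA 2, against 6.31 and 6.802 FPKM in the 0 mM controls and 4.88 and 4.42 FPKM in the 20 mM controls. It was at 32.1% of the control mean with shRNA 1 and 33.5% with shRNA 2 (log2 fold change -1.18 ± 0.12 and -1.15 ± 0.12, limma adjusted p = 0.00182 and 0.0015). These 4 genes kept their calls, with each shRNA and with both averaged, in all 16 other settings and fits without a library.

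ANKRD1, a nuclear ankyrin repeat protein and classical YAP target, was below the level needed for a test. It had 4 reads in the first shRNA 1 library (0.107 FPKM) and 0 in the second, and 0 in both shRNA 2 libraries, against 15 and 12 reads in the 0 mM controls (0.366 and 0.393 FPKM) and 9 and 16 reads in the 20 mM controls (0.272 and 0.454 FPKM). A count of 0 allows up to 3 reads, at most 0.0991 FPKM in any library, and this limit covers counting error only.

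**Figure D2:**
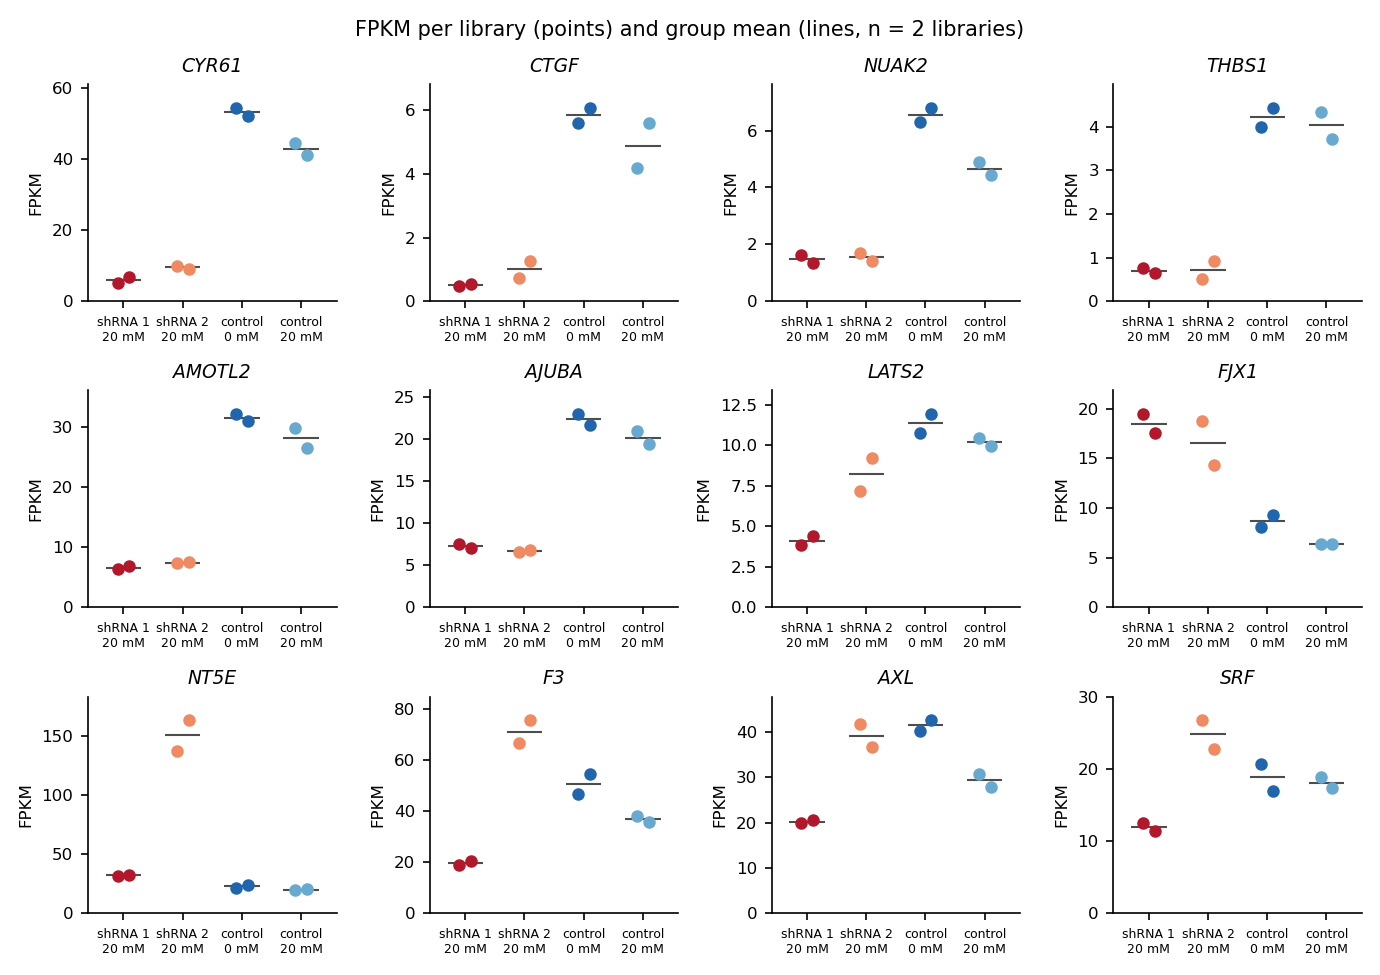
FPKM in each library (points) and group means (lines, n = 2) for 12 genes in cells with MAPKAPK2 shRNA 1 or shRNA 2 at 20 mM glucose and in control shRNA cells at 0 mM or 20 mM glucose; each axis starts at 0. CYR61, CTGF, NUAK2, THBS1, AMOTL2 and AJUBA are low in all 4 knockdown libraries, FJX1 is high in all 4, and NT5E, F3, AXL and SRF are higher with shRNA 2 than with shRNA 1.

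Other listed targets did not follow that pattern. FJX1, which encodes a secreted protein related to a Drosophila regulator of planar polarity, was higher, with 19.5 and 17.5 FPKM with shRNA 1 and 18.8 and 14.4 FPKM with shRNA 2, against 8.07 and 9.32 FPKM in the 0 mM controls and 6.39 and 6.35 FPKM in the 20 mM controls (log2 fold change 1.40 ± 0.14 and 1.24 ± 0.14, limma adjusted p = 0.00182 and 0.0021). NT5E, the cell surface nucleotidase CD73 that makes adenosine, had 31.9 and 32.3 FPKM with shRNA 1 and 137 and 164 FPKM with shRNA 2, against 21.7 and 24.3 FPKM in the 0 mM controls and 19.6 and 20.4 FPKM in the 20 mM controls. Its level was 1.61 times the control mean with shRNA 1 (log2 fold change 0.66 ± 0.11, limma adjusted p = 0.00927) and 7.55 times with shRNA 2 (2.85 ± 0.11, limma adjusted p = 9.54e-05). The NT5E call with shRNA 1 was lost without any 1 of the shRNA 1 or 20 mM control libraries (limma adjusted p up to 0.071). For FJX1 and NT5E, all 4 knockdown libraries lay above all 4 controls.

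F3 and AXL moved in opposite directions with the 2 shRNAs. F3, tissue factor, which starts blood coagulation, had 18.8 and 20.7 FPKM with shRNA 1 and 66.6 and 75.9 FPKM with shRNA 2, against 46.8 and 54.6 FPKM in the 0 mM controls and 38.3 and 35.8 FPKM in the 20 mM controls. It fell by 0.87 ± 0.12 on the log2 scale with shRNA 1 and was higher by 0.92 ± 0.12 with shRNA 2 (limma adjusted p = 0.00409 and 0.00312). AXL, a receptor tyrosine kinase, had 20.0 and 20.5 FPKM with shRNA 1 and 41.7 and 36.7 FPKM with shRNA 2, against 40.2 and 42.7 FPKM in the 0 mM controls and 30.8 and 27.9 FPKM in the 20 mM controls. Its changes were -0.51 ± 0.10 and 0.40 ± 0.10 (limma adjusted p = 0.0149 and 0.0331). The fall was lost without any 1 of the shRNA 1 or 20 mM control libraries (limma adjusted p up to 0.107), and the rise in 7 of the 8 fits without a library (up to 0.188). CRIM1, a transmembrane protein that binds bone morphogenetic proteins, ranged from 6.67 to 9.202 FPKM over the 8 libraries and passed in no comparison. Of the 9 tested targets, 6 were thus lower and 2 higher with shRNA 1, where 10.5% of all genes were lower and 9.35% higher. With shRNA 2, 4 were lower and 4 higher, where 7.73% of all genes were lower and 11.1% higher.

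Promoter sequence was examined because CTGF, NUAK2 and THBS1 fell together. Windows of 300 bases, from 250 bases before to 50 after a start site, were available from RefSeq (GRCh38.p14) for 35 of the 42 genes. No window was matched for STK3, TEAD1, TEAD4, CYR61, CRIM1, TAGLN and MYL9. Only 1 window was used for each gene, the first listed, so other start sites were not searched. The AMOTL1 window begins at 94768106, inside a gene that begins at 94706431. The shares over all windows were not limited to 1 window a gene. The letters GGAATG, the core of the TEAD motif, were searched on both strands. They occur in 14.0% of 35116 RefSeq promoter windows, and 2 or more times in 1.37%. Of the 8 target windows 4 hold them, those of CTGF, ANKRD1, NUAK2 and THBS1, as do those of LATS2, PTPN14, YAP1 and VCL among the 35. The windows of AMOTL2 and AJUBA, which also fell, hold none, and VCL, which holds 1, was higher. CTGF has 3 matches, with first bases at -169, -104 and -95 from the start, NUAK2 has 2 (at -197 on the opposite strand, and -18), ANKRD1 has 2 (at -220 and -128) and THBS1 has 1 (at -46). A match is a string of letters and not a bound site. The windows of the 3 tested targets that hold a match follow, with the matches in capitals: CTGF at chr6:131951323-131951622, minus strand; NUAK2 at chr1:205321696-205321995, minus strand; THBS1 at chr15:39580829-39581128, plus strand.
CTGF: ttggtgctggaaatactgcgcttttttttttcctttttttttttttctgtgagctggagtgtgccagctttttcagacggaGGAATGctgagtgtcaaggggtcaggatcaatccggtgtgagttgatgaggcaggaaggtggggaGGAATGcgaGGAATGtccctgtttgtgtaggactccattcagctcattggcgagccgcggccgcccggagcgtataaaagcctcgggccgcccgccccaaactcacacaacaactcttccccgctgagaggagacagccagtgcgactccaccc
NUAK2: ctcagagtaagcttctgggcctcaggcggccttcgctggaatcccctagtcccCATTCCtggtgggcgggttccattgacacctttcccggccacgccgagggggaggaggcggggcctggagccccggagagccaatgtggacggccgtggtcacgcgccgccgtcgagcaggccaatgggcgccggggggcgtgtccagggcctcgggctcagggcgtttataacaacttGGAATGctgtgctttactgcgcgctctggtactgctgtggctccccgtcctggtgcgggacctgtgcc
THBS1: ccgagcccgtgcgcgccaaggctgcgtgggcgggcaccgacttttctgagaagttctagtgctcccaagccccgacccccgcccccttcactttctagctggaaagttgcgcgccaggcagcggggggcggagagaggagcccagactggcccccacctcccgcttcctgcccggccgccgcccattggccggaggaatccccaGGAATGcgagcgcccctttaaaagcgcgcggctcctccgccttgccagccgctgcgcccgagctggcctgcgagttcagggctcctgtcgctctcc

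The coactivator genes changed in opposite directions. YAP1 (chr11:102110461-102233423, plus strand) had 22.1 and 27.3 FPKM with shRNA 1 and 16.6 and 21.0 FPKM with shRNA 2, against 46.1 and 49.0 FPKM in the 0 mM controls and 48.6 and 44.8 FPKM in the 20 mM controls. It fell to 52.9% of the 20 mM control mean with shRNA 1 (log2 fold change -0.90 ± 0.15, limma adjusted p = 0.00817) and to 40.2% with shRNA 2 (-1.28 ± 0.15, limma adjusted p = 0.00215). WWTR1, the gene of TAZ (chr3:149517235-149736714, minus strand), had 8.65 and 9.65 FPKM with shRNA 1 and 8.45 and 11.0 FPKM with shRNA 2, against 4.30 and 4.69 FPKM in the 0 mM controls and 4.74 and 4.64 FPKM in the 20 mM controls. It was 1.95 times and 2.07 times the 20 mM control mean (log2 fold change 0.83 ± 0.13 with shRNA 1 and 0.90 ± 0.13 with shRNA 2, limma adjusted p = 0.00749 and 0.00535). YAP1 shares its name with 2 annotated pseudogenes. Exons on the opposite strand overlap 9.975% of its exon bases and 9.45% of those of WWTR1. For neither gene did the knockdown and control libraries overlap. With both shRNAs averaged both calls held in all 16 other settings and fits, whereas with shRNA 1 alone that of YAP1 was lost without the first shRNA 1 or the first 20 mM control library (limma adjusted p up to 0.0649) and that of WWTR1 without the second shRNA 1 or either 20 mM control library (up to 0.0593). With shRNA 2, the WWTR1 call was lost when only the groups compared were fitted (limma adjusted p = 0.0521).

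The balance of the 2 coactivator mRNAs followed from these levels. YAP1 FPKM was 2.55 and 2.83 times WWTR1 FPKM with shRNA 1 and 1.96 and 1.91 times with shRNA 2, against 10.7 and 10.4 times in the 0 mM controls and 10.2 and 9.65 times in the 20 mM controls. The sum of both was 30.7 and 37.0 FPKM with shRNA 1 and 25.0 and 32.0 FPKM with shRNA 2, against 50.4 and 53.7 FPKM in the 0 mM controls and 53.3 and 49.4 FPKM in the 20 mM controls. The knockdown libraries lay below all controls in the ratio and in the sum. An exact permutation test of the 4 knockdown libraries against the 2 controls at 20 mM gave p = 0.133 (two-sided) for the ratio and for the sum, which is the smallest p that 4 against 2 libraries allow.

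Of the TEAD factors that carry YAP and TAZ to DNA, TEAD4 changed. TEAD4 had 9.87 and 9.73 FPKM with shRNA 1 and 13.3 and 13.2 FPKM with shRNA 2, against 16.1 and 16.4 FPKM in the 0 mM controls and 19.4 and 15.8 FPKM in the 20 mM controls. It was lower with shRNA 1 (log2 fold change -0.78 ± 0.11, limma adjusted p = 0.0046). With shRNA 2 its value was -0.38 ± 0.11 (limma adjusted p = 0.0518), and -0.51 without the second 20 mM control. With shRNA 2 TEAD4 passed as lower with quantile normalization (limma adjusted p = 0.03), median-ratio size factors (0.046) and a replicate block (0.0492). The call of the mean of both shRNAs was lost without the first 20 mM control (limma adjusted p = 0.0731). The other factors passed with neither shRNA. TEAD1 had 14.8 and 16.7 FPKM with shRNA 1 and 14.0 and 20.4 FPKM with shRNA 2, against 17.5 and 21.6 FPKM in the 0 mM controls and 19.9 and 16.7 FPKM in the 20 mM controls. TEAD2 had 11.2 and 12.1 FPKM with shRNA 1 and 9.30 and 8.69 FPKM with shRNA 2, against 10.6 and 10.2 FPKM in the 0 mM controls and 9.57 and 10.7 FPKM in the 20 mM controls. TEAD3 had 12.8 and 11.3 FPKM with shRNA 1 and 15.6 and 14.2 FPKM with shRNA 2, against 12.8 and 13.8 FPKM in the 0 mM controls and 13.4 and 14.3 FPKM in the 20 mM controls. The knockdown values of TEAD1, TEAD2 and TEAD3 overlapped those of the controls, and the 4 factors summed to 48.6 to 56.5 FPKM in the knockdown libraries and 57.4 to 62.3 FPKM in the 20 mM controls.

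**Figure D3:**
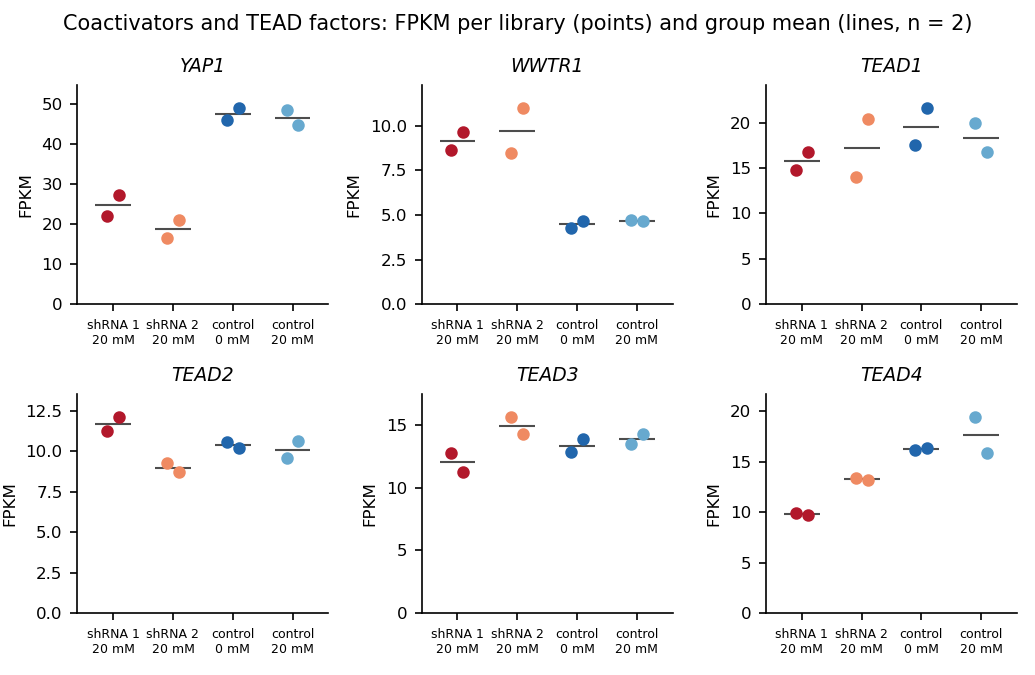
FPKM in each library (points) and group means (lines, n = 2) for YAP1, WWTR1 and TEAD1 to TEAD4, with both MAPKAPK2 shRNA groups left of the control shRNA groups; each axis starts at 0. YAP1 is lower and WWTR1 higher in all 4 knockdown libraries, TEAD4 is lower in all 4, and TEAD1, TEAD2 and TEAD3 overlap between groups.

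Among the other regulators of YAP or TEAD, AMOTL2 and AJUBA fell, and both are themselves reported YAP targets. AMOTL2, an angiomotin-like scaffold of cell junctions, had 6.29 and 6.90 FPKM with shRNA 1 and 7.33 and 7.52 FPKM with shRNA 2, against 32.1 and 30.8 FPKM in the 0 mM controls and 29.8 and 26.4 FPKM in the 20 mM controls. AJUBA, a LIM protein that inhibits LATS kinases, had 7.59 and 7.12 FPKM with shRNA 1 and 6.57 and 6.84 FPKM with shRNA 2, against 23.1 and 21.8 FPKM in the 0 mM controls and 20.9 and 19.5 FPKM in the 20 mM controls. The libraries of the groups were far apart. AMOTL2 was at 23.5% of the control mean with shRNA 1 and 26.4% with shRNA 2 (log2 fold change -1.94 ± 0.10 and -1.79 ± 0.10, limma adjusted p = 0.000259 and 0.000191). AJUBA was at 36.4% and 33.2% (-1.34 ± 0.09 and -1.46 ± 0.09, limma adjusted p = 0.000511 and 0.000266). All these calls held in the 16 other settings and fits.

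PTPN14, a phosphatase that holds YAP in the cytoplasm, had 3.83 and 3.98 FPKM with shRNA 1 and 4.496 and 5.96 FPKM with shRNA 2, against 7.22 and 7.01 FPKM in the 0 mM controls and 7.41 and 6.64 FPKM in the 20 mM controls. It was lower with shRNA 1 (log2 fold change -0.71 ± 0.13, limma adjusted p = 0.012). That call was lost without any 1 of the shRNA 1 or 20 mM control libraries. With shRNA 2 its value was -0.37 ± 0.13 (limma adjusted p = 0.0921), and -0.54 without the second shRNA 2 library. On the recovered reads PTPN14 passed as lower with shRNA 2 than in the 20 mM controls (limma voom adjusted p = 0.0276). There it also passed as higher with shRNA 2 than with shRNA 1 (limma voom adjusted p = 0.044). VGLL4, which competes with YAP for TEAD, had 6.88 and 7.12 FPKM with shRNA 1 and 4.24 and 4.33 FPKM with shRNA 2, against 4.86 and 4.76 FPKM in the 0 mM controls and 5.63 and 4.25 FPKM in the 20 mM controls. Its rise with shRNA 1 (0.44 ± 0.12, limma adjusted p = 0.049) was lost in 7 of the 8 fits without a library (limma adjusted p up to 0.22), and 23.7% of its exon bases overlap exons on the opposite strand, mainly of ATG7. AMOTL1 ranged from 4.91 to 7.61 FPKM and was above all controls in the 4 knockdown libraries, but did not pass (0.23 ± 0.12 for the mean of both shRNAs, limma adjusted p = 0.226). AMOT stayed below 1 FPKM in every library, at 0.369 to 0.716 FPKM in the knockdown libraries and 0.671 to 0.992 FPKM in the controls.

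In the kinase core, 4 of the 8 genes were lower and 0 higher for the mean of both shRNAs, where 7.77% of all genes were lower and 9.56% higher. Without either 20 mM control 0 of the 8 passed. LATS2, a kinase that inactivates YAP and is also a YAP target, had 3.83 and 4.41 FPKM with shRNA 1 and 7.20 and 9.21 FPKM with shRNA 2, against 10.8 and 12.0 FPKM in the 0 mM controls and 10.4 and 9.95 FPKM in the 20 mM controls. It fell to 40.4% of the control mean with shRNA 1 (log2 fold change -1.13 ± 0.13, limma adjusted p = 0.00261), and with shRNA 2 its value was -0.29 ± 0.13 (limma adjusted p = 0.177). SAV1 had 11.7 and 12.4 FPKM with shRNA 1 and 11.8 and 13.3 FPKM with shRNA 2, against 20.6 and 22.9 FPKM in the 0 mM controls and 18.9 and 17.3 FPKM in the 20 mM controls. MOB1A had 24.4 and 25.5 FPKM with shRNA 1 and 24.1 and 30.1 FPKM with shRNA 2, against 30.7 and 35.3 FPKM in the 0 mM controls and 36.8 and 38.7 FPKM in the 20 mM controls. Both were lower with either shRNA: SAV1 by -0.55 ± 0.10 and -0.49 ± 0.10 (limma adjusted p = 0.0126 and 0.0177), and MOB1A by -0.58 ± 0.13 and -0.47 ± 0.13 (limma adjusted p = 0.0225 and 0.0437).

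NF2 (merlin), the scaffold that recruits LATS kinases to the membrane, was lower with shRNA 2 (-0.48 ± 0.09, limma adjusted p = 0.0116) and had a value of -0.09 ± 0.09 with shRNA 1 (limma adjusted p = 0.537). Several of these calls rest on single libraries. Those of SAV1 and MOB1A with shRNA 1 were lost without any 1 of the shRNA 1 or 20 mM control libraries (limma adjusted p up to 0.0942 and 0.122). With shRNA 2, those of SAV1 and NF2 were lost without either 20 mM control (up to 0.123 and 0.0936) and that of MOB1A in 7 of the 8 fits without a library (up to 0.192). For the mean of both shRNAs SAV1, MOB1A, LATS2 and NF2 all lost their calls without either 20 mM control, as given above. Over all fits without a library their limma adjusted p reached 0.101, 0.144, 0.082 and 0.271. MOB1A shares its name with 2 annotated pseudogenes. In SAV1, 14.9% of exon bases overlap exons on the opposite strand. STK3, STK4, LATS1 and MOB1B passed in no comparison, with values between -0.37 ± 0.16 (LATS1) and 0.13 ± 0.18 (MOB1B) for the mean of both shRNAs. When only the groups compared were fitted, LATS1 passed as lower with shRNA 1 (-0.43, limma adjusted p = 0.0291). Without the second shRNA 2 library the LATS1 value was -0.52 for the mean of both shRNAs and -0.61 with shRNA 2.

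SRF itself moved apart between the 2 shRNAs. SRF had 12.6 and 11.4 FPKM with shRNA 1 and 26.9 and 22.8 FPKM with shRNA 2, against 20.8 and 17.0 FPKM in the 0 mM controls and 18.9 and 17.4 FPKM in the 20 mM controls. It was lower with shRNA 1 (log2 fold change -0.56 ± 0.13, limma adjusted p = 0.0268), a call lost without any 1 of the shRNA 1 or 20 mM control libraries. Its value with shRNA 2 was 0.43 ± 0.13 (limma adjusted p = 0.064). With shRNA 2 SRF passed as higher on the recovered reads (limma voom adjusted p = 0.0243) and with a replicate block (limma adjusted p = 0.0175). The CArG box, the sequence that SRF binds, was searched in the same promoter windows and occurs in 1.29% of all of them and in 3 of the 10 windows of this group, those of SRF, CNN2 and FLNA. The SRF window is shown because it holds 2 boxes (in capitals, first bases at -30 and -10), which 0.0313% of all windows do; it lies at chr6:43171019-43171318, plus strand.
SRF: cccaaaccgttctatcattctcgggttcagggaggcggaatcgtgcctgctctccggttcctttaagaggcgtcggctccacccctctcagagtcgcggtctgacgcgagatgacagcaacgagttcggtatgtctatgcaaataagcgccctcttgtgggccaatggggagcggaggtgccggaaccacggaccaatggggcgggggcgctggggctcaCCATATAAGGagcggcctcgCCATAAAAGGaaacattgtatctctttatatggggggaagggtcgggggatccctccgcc

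Cytoskeletal genes of the SRF group did not move as one. ZYX (zyxin, a focal adhesion protein) had 72.3 and 63.2 FPKM with shRNA 1 and 87.1 and 75.4 FPKM with shRNA 2, against 53.9 and 51.3 FPKM in the 0 mM controls and 50.7 and 49.9 FPKM in the 20 mM controls, and was higher with both (0.42 ± 0.11 and 0.68 ± 0.11, limma adjusted p = 0.0378 and 0.00733). VCL (vinculin, which links adhesions to actin) had 24.6 and 26.4 FPKM with shRNA 1 and 27.9 and 34.99 FPKM with shRNA 2, against 19.9 and 21.3 FPKM in the 0 mM controls and 21.8 and 20.9 FPKM in the 20 mM controls, and passed with shRNA 2 (0.53 ± 0.12, limma adjusted p = 0.0243). Both genes were above all 4 controls in all 4 knockdown libraries. FLNA (filamin A, an actin crosslinker) had 89.4 and 82.2 FPKM with shRNA 1 and 128 and 124 FPKM with shRNA 2, against 153 and 148 FPKM in the 0 mM controls and 141 and 121 FPKM in the 20 mM controls. MYL9, a myosin light chain, had 11.6 and 10.5 FPKM with shRNA 1 and 21.7 and 16.4 FPKM with shRNA 2, against 21.3 and 20.8 FPKM in the 0 mM controls and 18.4 and 18.0 FPKM in the 20 mM controls. FLNA and MYL9 were lower with shRNA 1 (-0.60 ± 0.10 and -0.68 ± 0.13, limma adjusted p = 0.0106 and 0.0155) and overlapped the controls with shRNA 2. FLNA is among the 14 genes lower, and VCL among the 5 higher, for the mean of both shRNAs. With shRNA 2 FLNA was at 96.3% of the 20 mM control mean. Both genes lost the call of that mean with no filter, quantile normalization, only the groups compared or no intensity trend. Several fits without a library lost it too.

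TAGLN2, a calponin family protein, had 52.0 and 51.3 FPKM with shRNA 1 and 34.9 and 26.4 FPKM with shRNA 2, against 45.5 and 44.2 FPKM in the 0 mM controls and 44.5 and 45.5 FPKM in the 20 mM controls, and was lower with shRNA 2 (-0.55 ± 0.13, limma adjusted p = 0.0275). CNN2 was lower with shRNA 1 (-0.39 ± 0.11, limma adjusted p = 0.0455), but 11 pseudogenes carry its name and the assignment of its reads is uncertain. Without either 20 mM control the calls of ZYX with each shRNA, VCL and TAGLN2 with shRNA 2, and MYL9 and CNN2 with shRNA 1 were lost. Those of MYL9, CNN2 and ZYX with shRNA 1 were also lost without either shRNA 1 library. FLNA with shRNA 1 lost its call without either shRNA 1 library or the first 20 mM control (limma adjusted p up to 0.0804). Over all fits without a library the adjusted p reached 0.196 for ZYX with shRNA 1, 0.13 for VCL, 0.133 for TAGLN2, 0.0984 for MYL9 and 0.209 for CNN2. CNN3 (59.2 to 63.8 FPKM), TAGLN (1.80 to 2.91 FPKM) and TPM1 (1.19 to 1.70 FPKM) passed in no comparison by limma on log2(FPKM + 1). TPM1 was above all 4 controls in the 4 knockdown libraries. On the recovered reads it passed as higher for the mean of both shRNAs (limma voom adjusted p = 0.046). In TPM1, 21.4% of exon bases overlap exons on the opposite strand. The smooth muscle genes ACTA2 and CNN1 stayed below 1 FPKM in every library, at most 0.910 and 0.157 FPKM.

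The 2 shRNAs differed on 13 of the 38 genes, 9 higher and 4 lower with shRNA 2 than with shRNA 1 (34.2%, where 22.2% of all genes passed, 13% higher and 9.13% lower). NT5E (4.70 times the shRNA 1 mean), F3 (3.604 times), SRF (2.07 times) and AXL (1.94 times) differed most and kept the call in all 16 other settings and fits. LATS2, MYL9, CYR61, FLNA and TEAD4 were also higher, and TAGLN2, VGLL4, NF2 and TEAD2 lower, with shRNA 2. Without 1 of the shRNA 1 libraries 5 or 6 of the 13 calls were left. No difference between the shRNAs passed for AMOTL2 (0.15, 95% interval -0.08 to 0.38) and AJUBA (-0.12, -0.32 to 0.09). None passed for NUAK2 (0.04, -0.24 to 0.32) and THBS1 (-0.00, -0.39 to 0.38). The same held for WWTR1 (0.07, -0.24 to 0.38) and YAP1 (-0.38, -0.72 to -0.03, limma adjusted p = 0.108). On the recovered reads YAP1 passed as lower with shRNA 2 than with shRNA 1 (limma voom adjusted p = 0.0461). Without the second shRNA 2 library the YAP1 difference was -0.54.

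Epithelial markers moved with the shRNAs as well. CDH1 (E-cadherin) had 27.2 and 27.5 FPKM with shRNA 1 and 9.62 and 10.8 FPKM with shRNA 2, against 15.1 and 13.5 FPKM in the 20 mM controls; it was higher with shRNA 1 and lower with shRNA 2 (limma adjusted p = 0.0029 and 0.0299). Of the other 7 epithelial markers, EPCAM, KRT8 and KRT18 were lower with shRNA 2 (-0.69, -0.62 and -0.62), ELF3 was higher with shRNA 1 (1.27 ± 0.19, limma adjusted p = 0.00571) with a value of 0.23 ± 0.19 with shRNA 2, and KRT19, CLDN4 and CLDN7 passed with neither. The 8 markers summed to 1502 to 1708 FPKM with shRNA 1 and 1291 to 1665 FPKM with shRNA 2, against 1622 to 1655 FPKM. The 9 smooth muscle and fibroblast markers summed to 5.05 to 5.24 FPKM with shRNA 1 and 4.94 to 5.93 FPKM with shRNA 2, against 7.89 to 8.77 FPKM, most of it COL1A1, with DCN and LUM at 0 in every library. The part of these markers in the results was not tested.

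Removing glucose from control cells gave small differences. None of the 38 genes passed at 0 mM against 20 mM (0% of all 16239 genes passed by limma on log2(FPKM + 1); limma voom called 0 of the 38 and 0.172% of all genes), and 7 had an unadjusted p under 0.05 in either fit, where 8.75% of all genes did so by limma on log2(FPKM + 1) and 8.47% by limma voom. Log2 fold changes ranged from -0.19 (MOB1A) to 0.49 (AXL), with a lowest limma adjusted p of 0.335. All 9 tested target genes had values above 0 (median 0.31, against -0.01 over all genes). By limma on log2(FPKM + 1), 5 of them had an unadjusted p under 0.05 (AXL, F3, NUAK2, CYR61 and FJX1). AXL had 40.2 and 42.7 FPKM at 0 mM, against 30.8 and 27.9 FPKM at 20 mM. F3 had 46.8 and 54.6 FPKM at 0 mM, against 38.3 and 35.8 FPKM at 20 mM, and NUAK2 6.31 and 6.802 FPKM, against 4.88 and 4.42 FPKM. CYR61 had 54.5 and 52.2 FPKM at 0 mM, against 44.6 and 41.3 FPKM at 20 mM, and CTGF 5.60 and 6.07 FPKM, against 4.17 and 5.60 FPKM. FJX1 had 8.07 and 9.32 FPKM at 0 mM, against 6.39 and 6.35 FPKM at 20 mM. Both 0 mM libraries lay above both 20 mM libraries for each of these genes, in CTGF by a margin that rounding hides. CTGF was not among the 5 with an unadjusted p under 0.05 (limma unadjusted p = 0.244). Over all 38 genes the 2 groups did not overlap for 16 genes that were higher and 6 that were lower at 0 mM, where 19.1% and 22.2% of all genes did the same. The 95% interval for CYR61 was 0.01 to 0.60 and for YAP1 -0.32 to 0.37 on the log2 scale.

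**Figure D4:**
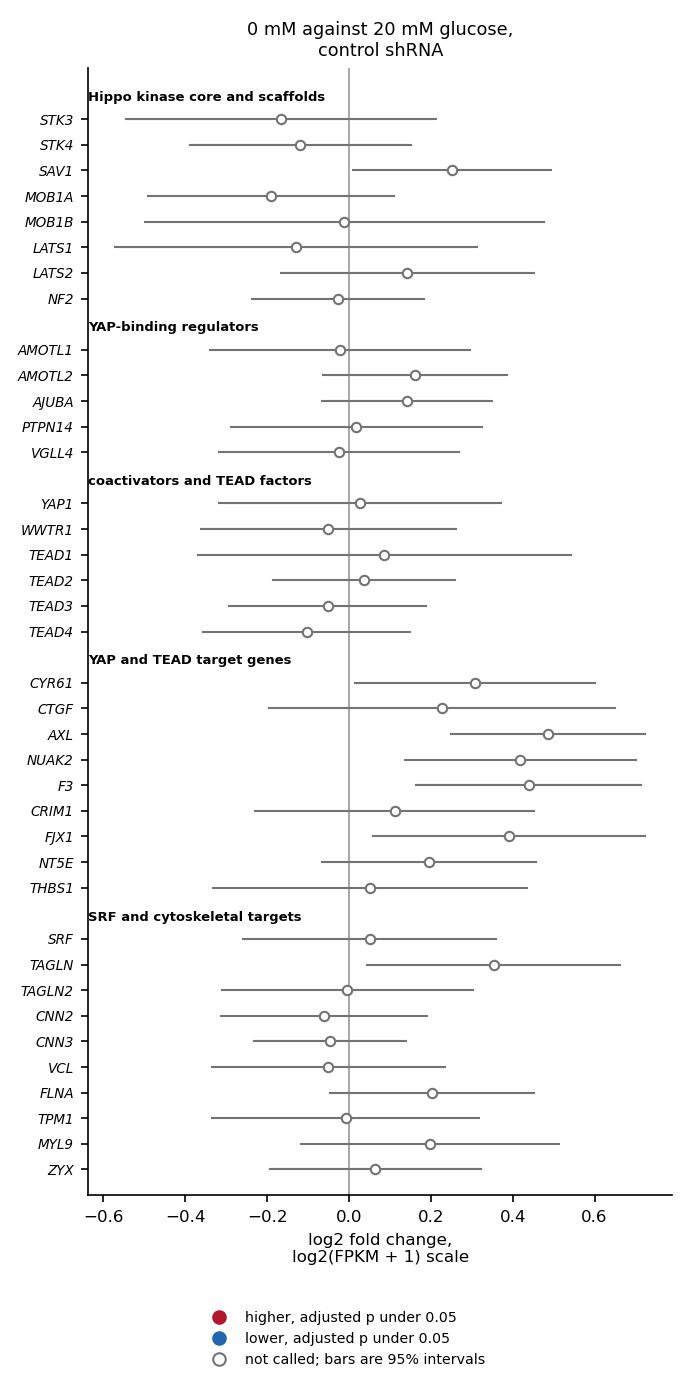
Log2 fold change at 0 mM against 20 mM glucose in control shRNA cells on the log2(FPKM + 1) scale, with 95% intervals, for the 38 tested genes grouped by role (n = 2 libraries a group). No gene passed; the 9 target genes all lie above 0, up to 0.49 for AXL.

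The rest of the pathways was read from 3 wider lists. Of 42 tested upstream Hippo regulators, 4 were higher and 2 lower for the mean of both shRNAs (14.3%, where 17.3% of all genes passed), among them TNIK, a kinase of the MAP4K group (1.28 ± 0.12, limma adjusted p = 0.00143), and WWC3, a KIBRA relative (0.89 ± 0.11, 0.0031). On the lower side were the AJUBA relative WTIP (-0.71 ± 0.13, 0.0135) and RASSF1 (-0.64 ± 0.12, 0.0127). Of 35 other YAP and TAZ targets, 6 were higher and 9 lower (42.9%), with the EGF receptor ligand AREG at -1.94 ± 0.08 (limma adjusted p = 0.000138), IER3 at -0.90 ± 0.09 (0.00186) and the protease gene PLAU at 1.68 ± 0.11 (0.00047). PLAU and IER3 share 31.1% and 26.5% of their exon bases with genes on the opposite strand. Of 49 genes of the MRTF and SRF network, 15 were higher and 6 lower (42.9%), with ELK3 at 1.16 ± 0.11 (limma adjusted p = 0.0014), FHL2 at 1.07 ± 0.09 (0.000998), PDLIM7 at 0.88 ± 0.12 (0.00413) and EGR1 at -0.92 ± 0.09 (0.00156). Several of these means join unequal values. EGR1 was -1.53 with shRNA 1 (limma adjusted p = 0.000581) and -0.32 with shRNA 2, which did not pass (0.081). AREG was -2.60 with shRNA 1 and -1.28 with shRNA 2, PLAU 2.68 and 0.68, and ELK3 0.68 and 1.65. The difference between the shRNAs passed for each of these 4 genes. Without either 20 mM control the calls of WTIP and RASSF1 were lost (limma adjusted p up to 0.126 and 0.101), as was that of PDLIM7 without the second (0.0511), and the counts of the 3 lists were 2 in place of 6, 9 in place of 15 and 7 or 8 in place of 21, the last being 13 without the first shRNA 1 library. In the MRTF and SRF network 7 were higher and 11 lower with shRNA 1, where 9.35% of all genes were higher and 10.5% lower. With shRNA 2, 20 were higher and 2 lower (11.1% and 7.73% of all genes), and 24 were higher and 2 lower with shRNA 2 than with shRNA 1 (13% and 9.13% of all genes). Without 1 of the shRNA 1 libraries these counts were 5 or 7 with shRNA 1 (18 with all libraries) and 14 or 15 between the shRNAs (26), and without 1 of the 20 mM controls 6 or 7 with shRNA 1 and 14 or 15 with shRNA 2 (22). At 0 mM against 20 mM glucose limma called 0 genes in each of the 3 lists (0, 5 and 6 genes with an unadjusted p under 0.05), and limma voom also called 0 in each.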

How the data were processed

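RNA-seq libraries of HCT116 cells were made from total RNA with random hexamer priming, per the labels' protocols, which cover directional and non-directional libraries without saying which was made. DESeq2 1.20.0, featureCounts 1.5.0-p3 and HISAT2 2.0.5 are named in the submitters' processing notes, with no role given. The deposited values are FPKM as made by the authors. All 58735 gene identifiers and positions equal GENCODE 29, so coordinates are on GRCh38.

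FPKM multiplied by gene length and by 1 factor per library, read from the smallest steps in the values, gave whole reads within 0.001 for 100% of values. The library sizes this implies are 0.9498 to 1.0729 times the reads in genes, lowest in both shRNA 2 libraries, by a scaling not given in the submitters' notes. The median-ratio alternative rescales the libraries. The test was limma 3.58.1 (R 4.3.3, eBayes with an intensity trend, 4 group means, 4 residual degrees of freedom) on log2(FPKM + 1) of the 16239 genes with at least 1 FPKM in at least 2 libraries, with Benjamini-Hochberg adjustment over all of them, called at an adjusted p under 0.05. Calls for the mean of both shRNAs also needed the same sign with each. Intervals are 95% intervals of that fit. Scripts were tested on simulated data. The members, lists and tests were chosen with earlier results of these data known. Values in every library are given for MAPKAPK2, CYR61, CTGF, ANKRD1, YAP1, WWTR1, the TEAD factors, SRF and each called member with an absolute log2 fold change of at least 0.5. From each of 3 wider lists of 151 genes the 4 called genes with the largest change are named by their fold changes, of which 1 is not reported here; CDH1 was named after its values were seen. Of the names on these lists PALS1, MKL1 and MKL2 have no row under that name in the table.

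Alternatives were a pseudocount of 0.1, no filter, quantile normalization, median-ratio size factors, limma voom on the recovered reads, a fit of only the groups compared, no intensity trend, a replicate block and 8 fits without 1 library, in which a lone library is assumed to vary like the other groups. Same-numbered libraries of different groups deviated with correlations of -0.03 to 0.18, which shows no strong shared shift. Whether same-numbered libraries were made together is not stated, and these correlations cannot settle it.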

Additional observations from a re-analysis of the deposited data

Results flagged for a closer look

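The effects of the 2 MAPKAPK2 shRNAs differed for 13 genes by the test of the difference itself (limma adjusted p under 0.05, shRNA 2 minus shRNA 1, n = 2 libraries each). On the log2 scale the differences were 2.19 for NT5E, 1.80 for F3, 0.99 for SRF, 0.92 for AXL, 0.84 for LATS2, 0.72 for MYL9, 0.61 for CYR61, 0.55 for FLNA, 0.40 for TEAD4, -0.34 for TEAD2, -0.40 for NF2, -0.60 for VGLL4 and -0.75 for TAGLN2. NT5E, F3, SRF and AXL kept the call in all 16 other settings and fits. TEAD2 lost it in all 8 fits without a library, and TEAD4 in 6 of them. TEAD4 also lost it with quantile normalization and with median-ratio size factors, and FLNA with quantile normalization. The residual MAPKAPK2 level also differed, at 0.982 and 0.800 FPKM with shRNA 2 and 2.77 and 2.54 FPKM with shRNA 1. Depth of knockdown and the identity of the hairpin cannot be told apart with 1 level for each shRNA.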

How the results depend on the processing

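Of 73 calls of a listed gene in a comparison, 47 were kept in all 8 other settings, 36 in all 8 fits without a library and 34 in all 16, and 0 were reversed. Fitting only the groups compared gave 10 calls with shRNA 2 (18 over all groups) and 4 between the shRNAs (13), and in the MRTF and SRF network 13 with shRNA 2 (22) and 14 between the shRNAs (26). Fits without 1 library gave 10 to 21 calls of listed genes for the mean of both shRNAs (19 with all libraries), 11 to 23 with shRNA 1 (23), 11 to 20 with shRNA 2 (18), 5 to 12 between the shRNAs (13) and 0 for glucose. For the wider lists and the mean of both shRNAs they gave 2 to 8 upstream Hippo regulators (6), 9 to 19 YAP and TAZ targets (15) and 7 to 22 genes of the MRTF and SRF network (21), and in that network 5 to 26 with shRNA 1 (18), 14 to 22 with shRNA 2 (22) and 14 to 25 between the shRNAs (26). With the replicate block, which the labels do not describe as a batch, the counts were 19, 22, 20 and 13 for listed genes, in the order above, and 0 for glucose. Alternatives for the wider lists were added after seeing the data. The lowest depth, 14252316 reads, limits CTGF, THBS1 and ANKRD1, which had under 1.3 FPKM in the knockdown libraries.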
